A study of Mus musculus with 15 samples.

Results

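The genes described here are 10 enzymes that make, lengthen and desaturate fatty acids: Acly, Acaca, Fasn, Scd1, Scd2, Elovl1, Elovl5, Elovl6, Fads1 and Fads2. They were picked by symbol for their textbook roles from the 55486 genes of a table of bulk RNA-seq read counts. The rule uses no measured value, but the genes were chosen with earlier results of these data known. The libraries came from flow-sorted tumour macrophages of mice with a glioma driven by PDGFB, which the model expresses in Nestin-positive progenitor cells, and every library carried the genotype Ink4a/ArfKO, PDGFB. Lipid-laden monocyte-derived macrophages (MDM, which enter the tumour from the blood) had 3 libraries, non-lipid-laden MDM had 4, lipid-laden microglia (the macrophages resident in the brain) had 4 and non-lipid-laden microglia had 4. Number 431 has no lipid-laden MDM library among those analysed here. No treatment, time point or age was used to divide the groups, and neither the stain nor the gate that defined lipid-laden cells is known from the labels. The titles carry the numbers 221, 224, 431 and 718, which recur across groups without saying whether a number is 1 animal, and nothing else says that libraries of a group came from separate animals. The p-values therefore measure the spread between these libraries.

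De novo fatty acid synthesis starts in the cytosol, where ATP citrate lyase (Acly) turns citrate into acetyl-CoA, acetyl-CoA carboxylase (Acaca) makes malonyl-CoA from it, and fatty acid synthase (Fasn) joins these units into palmitate. Elongases of the Elovl family then lengthen fatty acids in the endoplasmic reticulum, stearoyl-CoA desaturases (Scd) put the first double bond into saturated chains, and the Fads desaturases act on polyunsaturated chains that come from the diet. Many of these genes are targets of the transcription factors SREBP, LXR and ChREBP, and in macrophages loaded with sterol the SREBP and LXR pathways are known to move in opposite directions. By the coordinates of the table's genes in mm10, Acly (ENSMUSG00000020917, chr11:100476353-100528000), Acaca (ENSMUSG00000020532, chr11:84129672-84401651) and Fasn (ENSMUSG00000025153, chr11:120805846-120824547) lie on chromosome 11. Scd1 (ENSMUSG00000037071, chr19:44394455-44407879), Scd2 (ENSMUSG00000025203, chr19:44293674-44306864), Fads1 (ENSMUSG00000010663, chr19:10182888-10196877) and Fads2 (ENSMUSG00000024665, chr19:10062765-10101746) lie on chromosome 19. The elongases Elovl1 (ENSMUSG00000006390, chr4:118428093-118432953), Elovl5 (ENSMUSG00000032349, chr9:77917364-77984519) and Elovl6 (ENSMUSG00000041220, chr3:129532355-129638495) lie apart from each other.

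The levels of Scd1 and Scd2 below rest on telling apart similar genes that lie close together on mouse chromosome 19. The coding sequences of Scd1 and Scd2 were 90.4% identical, those of Scd1 and Scd3 91.5% and those of Scd1 and Scd4 85.2%. The coding stretch around the first histidine box, an iron-binding motif of the active site, shows how far they differ over 66 bases. It is given 5′ to 3′ on the coding strand from GRCm38 with the GENCODE M21 annotation, at chr19:44403207-44403272, minus strand, for Scd1, at chr19:44298063-44298128, plus strand, for Scd2, at chr19:44234246-44234311, plus strand, for Scd3 and at chr19:44337524-44337589, plus strand, for Scd4. Capitals mark the bases that differ from Scd1.
Scd1: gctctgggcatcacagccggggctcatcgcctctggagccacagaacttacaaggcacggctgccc
Scd2: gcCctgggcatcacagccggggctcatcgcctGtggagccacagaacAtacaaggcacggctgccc
Scd3: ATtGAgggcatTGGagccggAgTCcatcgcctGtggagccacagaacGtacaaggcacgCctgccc
Scd4: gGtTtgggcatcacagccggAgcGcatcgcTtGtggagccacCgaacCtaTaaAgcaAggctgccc
Scd2 differed from Scd1 at 3 of these bases, Scd4 at 11 and Scd3 at 13. Over whole transcripts, 4.56% of the 50-base words of Scd1 and 3.97% of those of Scd2 also occurred in transcripts of other genes, their Scd relatives among them. A read from such a stretch cannot be placed, so a small count of Scd1 beside a large count of Scd2 is uncertain.

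Of the 10 genes, 7 had a promoter entry in RefSeq (GRCm38.p6), and those of the elongases Elovl5 and Elovl1 are shown over the 250 bases upstream of the start. Their log2 fold changes had opposite signs in lipid-laden MDM against MDM, where Elovl1 was not called, and in MDM against microglia. Both were positive, and neither was called, in lipid-laden MDM against lipid-laden microglia. Elovl5 lies at chr9:77917115-77917364, plus strand, and Elovl1 at chr4:118427843-118428092, plus strand. Capitals mark matches on either strand to CACGTG, the E-box bound by ChREBP and SREBP among many factors, to CCAAT (inverted, ATTGG), or to TCACNCCAC, a sterol response element. These motifs did not overlap each other.
Elovl5: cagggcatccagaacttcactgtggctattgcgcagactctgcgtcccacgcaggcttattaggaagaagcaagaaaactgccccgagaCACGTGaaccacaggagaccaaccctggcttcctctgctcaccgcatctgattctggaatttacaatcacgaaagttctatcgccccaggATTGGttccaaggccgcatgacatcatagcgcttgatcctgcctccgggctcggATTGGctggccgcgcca
Elovl1: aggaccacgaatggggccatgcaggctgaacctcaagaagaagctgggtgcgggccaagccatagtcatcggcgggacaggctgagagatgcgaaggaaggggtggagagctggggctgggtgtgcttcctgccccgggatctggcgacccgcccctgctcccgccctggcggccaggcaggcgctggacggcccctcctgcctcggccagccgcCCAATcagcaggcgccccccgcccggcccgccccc
The Elovl5 window held CACGTG once, beginning 161 bases before the start, and CCAAT inverted at 71 and 17 bases before it. The Elovl1 window held a CCAAT 35 bases before the start and 5 matches to GGGCGG, which are not capitalised. Neither held TCACNCCAC. Among 32851 mouse promoter windows of the same length, CACGTG was found in 6.02%, CCAAT in 33.8%, GGGCGG in 32.7% and TCACNCCAC in 1.05%. A match describes letters only. Elovl1 has a further RefSeq start, whose window held none of the capitalised motifs. The genes without an entry were Scd1, Scd2 and Fads1.

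Library totals were 9306839 to 10699235 counts in lipid-laden MDM, 7798952 to 11419338 in MDM, 8962885 to 9797627 in lipid-laden microglia and 7842531 to 9658143 in microglia. All 10 genes passed the filter on low counts. The groups' labels were checked against markers before the genes were read. Summed over 7 microglial markers, levels in CPM (counts scaled to a common library size, with TMM factors) were 5119.5 to 6199 in lipid-laden MDM, 1881.5 to 2657 in MDM, 4832 to 10958 in lipid-laden microglia and 7928 to 10735 in microglia. Summed over 6 MDM markers they were 1014 to 1327 in lipid-laden MDM, 2631 to 3257 in MDM, 159 to 333 in lipid-laden microglia and 148 to 252 in microglia. No marker of either list was at 0 in any group. The libraries labelled lipid-laden MDM thus lay between MDM and microglia on both lists, and this stands beside every comparison of lipid-laden MDM. In bulk libraries, fewer cells of a type and less RNA per cell cannot be told apart.

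Scd1, Elovl5 and Fads1 set MDM without lipid load apart from the other groups, and Scd2 was highest in lipid-laden microglia. In lipid-laden MDM against MDM, Fads1 rose while Scd1 and Elovl5 fell. That made 3 of 10 genes called by edgeR's quasi-likelihood test at a Benjamini-Hochberg adjusted p under 0.05, 1 higher and 2 lower, beside 8.17% of all 14843 genes tested (5.21% higher and 2.96% lower). In MDM against microglia, both without lipid load, Scd1 and Elovl5 rose while Fads1 and Elovl1 fell, which made 4 of 10 called beside 23.2% of all genes (10.7% higher and 12.5% lower). In lipid-laden MDM against lipid-laden microglia, Scd2 alone of the 10 was called, and it fell, beside 2.78% of all genes (2.2% higher and 0.579% lower). In lipid-laden against non-lipid-laden microglia, edgeR called 0 of 10 and 0% of all genes, with 1 of the 10 (Scd2) and 1367 of all genes at an unadjusted p under 0.05. DESeq2 called 1 of the 10 there and limma-voom 0. These comparisons share libraries, so the opposite signs of Scd1, Elovl5 and Fads1 in the MDM comparisons are not independent of each other.

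The median log2 fold change of the 10 genes was 0.22 in lipid-laden MDM against MDM, beside 0.04 over all genes. It was -0.04 in lipid-laden microglia against microglia (all genes -0.02), -0.33 in MDM against microglia (all genes -0.12) and -0.16 in lipid-laden MDM against lipid-laden microglia (all genes -0.03). The summed level of the 10 genes was 1014 ± 122 CPM in lipid-laden MDM, 976 ± 57.6 in MDM, 1136 ± 76.7 in lipid-laden microglia and 1056 ± 81.8 in microglia (SD, n = 3, 4, 4 and 4).

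**Figure D1:**
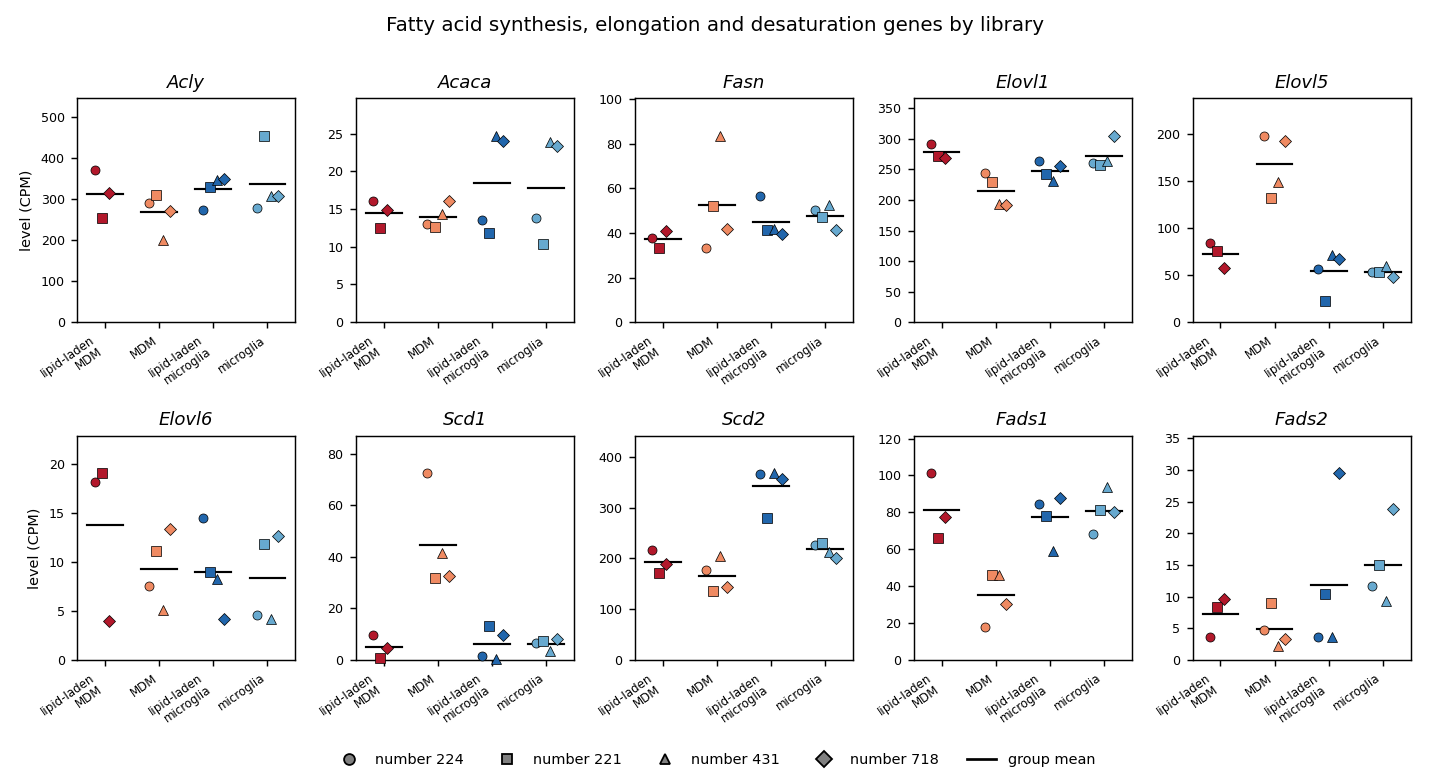
Level of each of the 10 genes in every library, in CPM on a linear axis from 0. Points are libraries, shaped by the number in the title, and bars are group means. MDM stand high for Scd1 and Elovl5 and low for Fads1, and lipid-laden microglia stand high for Scd2.

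**Figure D2:**
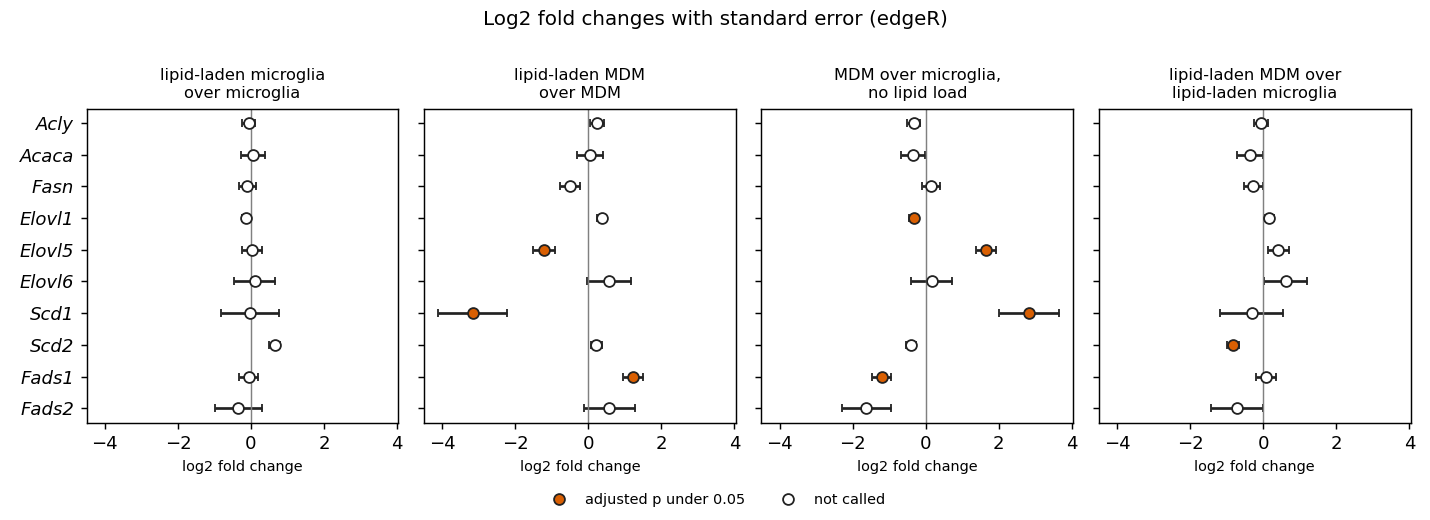
Log2 fold changes of the 10 genes with their standard errors in 4 comparisons from 1 edgeR fit of all 15 libraries. Filled points are called at an adjusted p under 0.05, and an error bar smaller than its point is hidden. Filled points appear for Elovl5, Scd1 and Fads1 in lipid-laden MDM over MDM, for these and Elovl1 in MDM over microglia, and for Scd2 in lipid-laden MDM over lipid-laden microglia.

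The 3 enzymes of synthesis itself were not called in any comparison. Acly, which supplies the acetyl-CoA, had 255, 371 and 314 CPM in lipid-laden MDM (numbers 221, 224 and 718) and 311, 291, 199 and 271 in MDM (numbers 221, 224, 431 and 718). In lipid-laden microglia it had 329, 273, 346 and 348 CPM, and in microglia 455, 278, 307 and 308, in the same order of numbers. All 4 ranges overlapped, and log2 fold changes lay between -0.33 ± 0.18 (SE; MDM against microglia, adjusted p = 0.205) and 0.22 ± 0.19 (lipid-laden MDM against MDM, adjusted p = 0.549, both edgeR).

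Acaca, the committing step to malonyl-CoA, was low, at 12.4, 16.0 and 14.9 CPM in lipid-laden MDM and 12.6, 13.0, 14.3 and 16.0 in MDM. Microglial levels split by number rather than by lipid load. Lipid-laden microglia had 11.9, 13.5, 24.7 and 24.0 CPM and microglia 10.3, 13.8, 23.9 and 23.4, with numbers 431 and 718 high in both. Within number-matched pairs the log2 difference of lipid-laden over non-lipid-laden microglia was only -0.03 to 0.19. Acaca is also the gene of the 10 whose reads are hardest to place, with 30.4% of its 50-base words found in transcripts of other genes.

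Fasn, which assembles palmitate, had 33.2, 37.8 and 40.6 CPM in lipid-laden MDM, against 52.0, 33.3, 83.5 and 41.9 in MDM. It had 41.3, 56.5, 41.6 and 39.6 CPM in lipid-laden microglia and 47.2, 50.1, 52.4 and 41.3 in microglia. The mean was lowest in lipid-laden MDM, but the MDM libraries alone spanned 33.3 to 83.5 CPM. The log2 fold change of lipid-laden MDM over MDM was -0.50 ± 0.26 (SE, edgeR adjusted p = 0.276). Across all 15 libraries Fasn varied 2.52-fold, Acaca 2.39-fold and Acly 2.28-fold between the lowest and highest library.

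Scd1 was the most variable of the 10, with 176-fold between its lowest and highest library. It had 0.661, 9.52 and 4.63 CPM in lipid-laden MDM, against 31.6, 72.5, 41.4 and 32.6 CPM in MDM. Every MDM library lay above every other library of the study, and lipid-laden MDM lay in the range of the microglial groups. Lipid-laden microglia had 13.0, 1.56, 0.412 and 9.66 CPM and microglia 7.13, 6.45, 3.51 and 8.09. Scd1 fell in lipid-laden MDM, with a log2 fold change over MDM of -3.17 ± 0.94 (edgeR adjusted p = 0.0495), and it was lower in 3 of 3 number-matched pairs. This call sat at the threshold and was lost whichever of the 7 MDM libraries was left out, with adjusted p of 0.0571 to 0.155 and log2 fold changes of -4.04 to -2.66. Scd1 rose in MDM against microglia, by 2.82 ± 0.82 on the log2 scale (edgeR adjusted p = 0.0214) and in 4 of 4 pairs. That call was lost without MDM of number 224 (edgeR adjusted p = 0.0625) or microglia of number 431 (0.0581). It was also lost without number 224 (0.103) or 718 (0.0945) in every group. In lipid-laden microglia against microglia the log2 fold change was -0.03 ± 0.79, and the pairs ran from -2.57 to 0.84.

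Scd2, the Scd form known to prevail in mouse brain, had more counts than Scd1 in every library. Lipid-laden microglia had 279, 366, 368 and 356 CPM, against 231, 227, 212 and 201 CPM in microglia. The groups did not overlap, and the pairs were higher by 0.27, 0.69, 0.79 and 0.83 on the log2 scale (numbers 221, 224, 431 and 718). The log2 fold change was 0.65 ± 0.15 and was not called by edgeR (adjusted p = 0.141, smallest of all genes 0.0717). It was called with the replicate number as a block (edgeR adjusted p = 0.0287) and by DESeq2 (adjusted p = 0.00322). Same-numbered microglial libraries did deviate together across genes. Library ranges were separate for 1 of the 10 genes in this comparison, beside 5.46% of all genes (2.65% higher).

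Lipid-laden MDM had 170, 217 and 189 CPM of Scd2 and MDM had 135, 176, 205 and 143. These overlapped, with a log2 fold change of 0.22 ± 0.16 (edgeR adjusted p = 0.455). Set against lipid-laden microglia, Scd2 fell in lipid-laden MDM, with a log2 fold change of -0.83 ± 0.16 (edgeR adjusted p = 0.0104) and lower values in 3 of 3 pairs. Without the lipid-laden MDM library of number 718 the edgeR adjusted p was 0.0513. Without number 224 or 718 in every group it was 0.101 or 0.182. In MDM against microglia the log2 fold change was -0.40 ± 0.15 (adjusted p = 0.0617, edgeR), called with DESeq2 (0.0481), limma-voom (0.0468), the replicate block (0.0204), without MDM of number 431 (0.0243) and without number 431 in every group (0.0473).

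Because the 2 desaturases catalyse the same reaction, their counts were also read as a pair. Scd1 made up 0.387%, 4.20% and 2.39% of Scd1 plus Scd2 counts in lipid-laden MDM (numbers 221, 224 and 718), against 19.0%, 29.1%, 16.8% and 18.6% in MDM. It made up 4.44%, 0.424%, 0.112% and 2.64% in lipid-laden microglia and 3.00%, 2.76%, 1.63% and 3.88% in microglia. The lowest MDM share, 16.8%, had an exact 95% binomial interval of 15.2% to 18.6%, and the highest share outside MDM, 4.44%, had one of 3.72% to 5.25%. These intervals cover counting error only. The summed level of the pair was 197 ± 28.0 CPM in lipid-laden MDM and 209 ± 44.4 in MDM, so the sum differed less than the share. In microglia the sum was 348 ± 37.7 CPM with lipid load and 224 ± 13.9 without it (SD, n = 4 each), and every lipid-laden library lay above every library without lipid load.

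**Figure D3:**
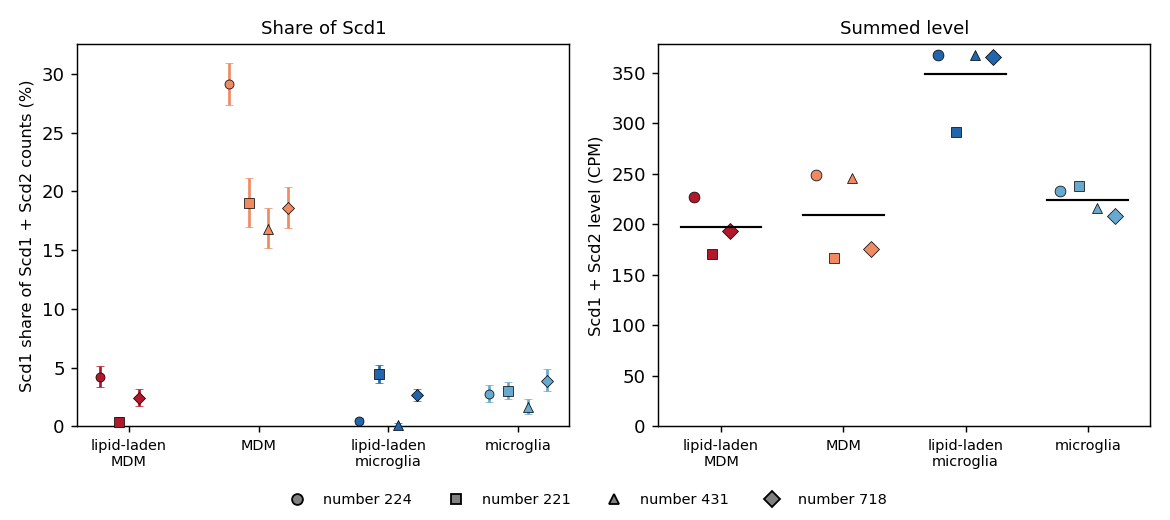
Left, the share of Scd1 among Scd1 plus Scd2 counts in each library, in percent, with exact 95% binomial intervals. Right, the summed level of both genes in CPM, with bars at group means. The MDM share was 16.8% to 29.1% and no other library exceeded 4.44%, while the sum was highest in lipid-laden microglia.

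The other Scd genes were also highest in MDM. Scd4, known from mouse heart, had 1 count in total in lipid-laden MDM against 348 in MDM, a ratio of 270 in favour of MDM with a counting interval of 48.2 to 10702.5. It had 2 counts in microglia, so MDM exceeded microglia by a ratio of 166 (45.5 to 1373). Both differences were called (edgeR adjusted p = 0.00323 for lipid-laden MDM against MDM and 0.000455 for MDM against microglia). Scd3, known from mouse skin and Harderian gland, had 0 counts in lipid-laden MDM and 112 in MDM, at least 29.0-fold lower against a floor of 3 counts over the group, and was not called (adjusted p = 0.110). In microglia it also had 0 counts, and MDM were at least 35.5-fold higher. Scd3 had counts only in the MDM libraries of numbers 221, 224 and 718 and passed the filter through these, so its call as higher in MDM than in microglia is no support for a difference. Scd4 likewise passed the filter through the MDM libraries alone, so its calls are no support for a difference either. Scd4 levels of 3.96, 12.5, 12.5 and 8.52 CPM in MDM had no counterpart above 0.22 CPM in any other library.

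Among the elongases, Elovl5, which extends polyunsaturated chains, changed most. It had 75.8, 83.9 and 57.1 CPM in lipid-laden MDM, against 131, 198, 148 and 192 in MDM. It had 22.8, 56.1, 71.7 and 66.9 CPM in lipid-laden microglia and 53.4, 53.3, 59.3 and 48.4 in microglia. MDM stood above all other libraries, with no overlap. Elovl5 fell in lipid-laden MDM against MDM by 1.21 ± 0.30 on the log2 scale (edgeR adjusted p = 0.0200) and in 3 of 3 pairs. The call was lost without MDM of number 224 (edgeR adjusted p = 0.0549) or lipid-laden MDM of number 221 (0.0542) or 718 (0.102). It was also lost without number 224 (0.134) or 718 (0.248) in every group. Elovl5 rose in MDM against microglia, with a log2 fold change of 1.64 ± 0.28 (edgeR adjusted p = 0.000465), in 4 of 4 pairs and whichever library was left out. Elovl5 was 19.7% ± 2.14 of the summed counts of the 3 elongases in lipid-laden MDM, 42.6% ± 5.43 in MDM, 17.2% ± 6.42 in lipid-laden microglia and 16.2% ± 2.09 in microglia.

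Elovl1, which lengthens saturated chains to very long ones, varied least of the 10, by 1.59-fold over all libraries. It had 272, 292 and 269 CPM in lipid-laden MDM and 230, 244, 193 and 192 in MDM, without overlap. The log2 fold change of 0.37 ± 0.12 was not called by edgeR (adjusted p = 0.0813) and was called by DESeq2 (0.0330). Lipid-laden microglia had 242, 264, 231 and 255 CPM and microglia 257, 260, 264 and 305. Elovl1 fell in MDM against microglia by 0.34 ± 0.12 (edgeR adjusted p = 0.0465), a call lost in 7 of the 8 fits that left out a library (adjusted p = 0.0550 to 0.157), with median-of-ratios scaling (0.0538), without the filter (0.148) and in a fit of only these groups (0.0867). Elovl1 shares 53 exon bases (1.94% of its own) with Cdc20 on the other strand, a mitosis gene and one of the proliferation markers, with 102 ± 22.1 CPM in lipid-laden MDM, 26.5 ± 9.23 in MDM, 143 ± 40.3 in lipid-laden microglia and 132 ± 35.1 in microglia. The strand setting of the counting is not given in the sources used here, and the part of Cdc20 reads in the Elovl1 counts was not tested.

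Elovl6, which takes palmitate to stearate, was low and uneven, with 19.1, 18.2 and 3.97 CPM in lipid-laden MDM and 11.1, 7.55, 5.07 and 13.4 in MDM. Lipid-laden microglia had 8.94, 14.5, 8.24 and 4.17 CPM and microglia 11.8, 4.62, 4.21 and 12.6. All groups overlapped. Its log2 fold changes of 0.11 to 0.62 had standard errors of 0.56 to 0.60, and no comparison was called.

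Fads1, which makes arachidonic and eicosapentaenoic acid, was low in MDM and level elsewhere. It had 66.1, 101 and 77.3 CPM in lipid-laden MDM, against 46.1, 17.6, 45.9 and 30.4 CPM in MDM. It had 78.1, 84.8, 58.9 and 87.9 CPM in lipid-laden microglia and 81.1, 68.5, 93.6 and 80.2 in microglia. Every MDM library lay below every library of the other groups. Fads1 rose in lipid-laden MDM against MDM by 1.22 ± 0.28 on the log2 scale (edgeR adjusted p = 0.0119), with pairs of 0.52, 2.51 and 1.34. The call was lost without lipid-laden MDM of number 224 (edgeR adjusted p = 0.0634). It was also lost without number 224 (0.113) or 718 (0.164) in every group. Fads1 fell in MDM against microglia by 1.21 ± 0.26 (edgeR adjusted p = 0.00326), in 4 of 4 pairs and whichever single library was left out. Without number 718 in every group that edgeR adjusted p was 0.0609. In lipid-laden MDM against lipid-laden microglia the log2 fold change was 0.07 ± 0.27.

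Fads2, which opens the same pathway and lies beside Fads1 on chromosome 19, had fewer counts. Its level was 8.37, 3.57 and 9.64 CPM in lipid-laden MDM and 8.98, 4.73, 2.21 and 3.35 in MDM. Lipid-laden microglia had 10.3, 3.56, 3.60 and 29.5 CPM and microglia 15.0, 11.7, 9.24 and 23.8. MDM and microglia did not overlap, and all 4 pairs were lower in MDM, but the log2 fold change of -1.63 ± 0.67 was not called (edgeR adjusted p = 0.0911). It was called with the replicate block (0.0351) and in a fit of only these groups (0.0386). Fads2 was 8.58% ± 4.48 of Fads1 plus Fads2 counts in lipid-laden MDM, 13.0% ± 7.25 in MDM, 11.7% ± 9.56 in lipid-laden microglia and 15.5% ± 5.71 in microglia.

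Library ranges did not overlap for 4 of the 10 genes in lipid-laden MDM against MDM, beside 21.8% of all genes (11.1% above and 10.7% below), with Fads1 and Elovl1 above and Scd1 and Elovl5 below. In MDM against microglia they did not overlap for 5, beside 28.6% of all genes (13.8% above and 14.8% below), with Scd1 and Elovl5 above and Fads1, Elovl1 and Fads2 below. In lipid-laden MDM against lipid-laden microglia they were separate for 2 (Scd2 lower, Elovl1 higher), beside 12.5% (7.35% higher and 5.17% lower). Compared between genes per kilobase of exon, Elovl1 led in every group, and Acly and Scd2 were among the 4 highest in each. Elovl1 had 102 ± 4.67 CPM per kb in lipid-laden MDM, 78.8 ± 9.68 in MDM, 91.0 ± 5.27 in lipid-laden microglia and 99.5 ± 8.34 in microglia. Acaca was lowest in every group, at 0.847 ± 0.107 CPM per kb in lipid-laden MDM, 0.819 ± 0.0909 in MDM, 1.08 ± 0.398 in lipid-laden microglia and 1.04 ± 0.400 in microglia. Only Acaca lay below Scd1 in lipid-laden MDM, where Scd1 had 1.01 ± 0.907 CPM per kb, beside 9.10 ± 3.92 in MDM.

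Whether the effect of lipid load differed between the origins was tested as an interaction. EdgeR called 0 of the 10 genes and 2.53% of all genes (1.6% higher and 0.93% lower), with 4 of the 10 (Elovl1, Elovl5, Fads1 and Scd1) and 2396 of all genes at an unadjusted p under 0.05. DESeq2 called Elovl5 (adjusted p = 0.0344) and Fads1 (0.0336), and limma-voom called Fads1 (0.0444). The log2 difference of effects, MDM minus microglia, was 1.28 ± 0.38 for Fads1 (edgeR adjusted p = 0.0851), -1.23 ± 0.40 for Elovl5 (0.119), 0.50 ± 0.17 for Elovl1 (0.138), -3.14 ± 1.19 for Scd1 (0.192) and -0.43 ± 0.22 for Scd2 (0.349). Without lipid-laden microglia of number 221, the library with the lowest Elovl5, the difference for Elovl5 was -1.49 and called (adjusted p = 0.00882).

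Some of the genes that control this pathway were called in MDM with lipid load. Of 15 regulators of lipogenesis, 4 rose, 2 fell and 9 were not called in lipid-laden MDM against MDM, with a list median of 0.02. Of all genes tested, 5.21% were called higher and 2.96% lower there. Srebf2, which encodes the SREBP of the cholesterol pathway, fell to 10.9, 11.5 and 18.1 CPM in lipid-laden MDM, against 54.1, 74.6, 34.6 and 38.5 in MDM, a log2 fold change of -1.90 ± 0.39 (edgeR adjusted p = 0.00686). Insig1, which holds SREBP precursors in the endoplasmic reticulum, fell by 0.93 (adjusted p = 0.0434), a call lost in 5 of 7 fits without a library. Mlxipl, which encodes ChREBP, rose by 2.15 ± 0.44 on the log2 scale (adjusted p = 0.00658), with 18.1, 12.9 and 21.5 CPM in lipid-laden MDM against 4.20, 1.51, 7.42 and 2.81 in MDM. Mid1ip1, a partner of acetyl-CoA carboxylase, rose by 1.50, its relative Thrsp by 1.97 and Insig2 by 0.97 (adjusted p = 0.0116, 0.0439 and 0.0357). Mid1ip1 was lost in 2 of the 7 fits without a library, Insig2 in 5 and Thrsp in 7. Srebf1, the SREBP gene of the fatty acid pathway, was not called, with a log2 fold change of 0.06 (adjusted p = 0.960) and 18.2, 60.5 and 48.5 CPM in lipid-laden MDM against 39.0, 40.4, 47.9 and 35.6 in MDM. Nr1h3, which encodes an LXR, was not called either (log2 fold change 0.02, adjusted p = 0.998).

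Targets of the sterol pathways were read from lists of known targets. In lipid-laden MDM against MDM, 5.21% of all genes were called higher and 2.96% lower. Of 6 LXR targets outside fatty acid synthesis, 3 rose and 0 fell there (list median 0.89, all genes 0.04). They were the cholesterol exporters Abca1 (420, 770 and 700 CPM against 240, 253, 258 and 256; log2 fold change 1.32, adjusted p = 0.000242) and Abcg1 (0.97, adjusted p = 0.00144) and the phospholipid-remodelling enzyme Lpcat3 (0.95, adjusted p = 0.0118). Cyp51, a sterol demethylase of cholesterol synthesis and an SREBP2 target, fell. It had 54.4, 39.7 and 38.2 CPM in lipid-laden MDM against 133, 122, 131 and 122 in MDM (log2 fold change -1.53, adjusted p = 0.000895). These lists and their direction were known from earlier results of the same data and lend no independent support.

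**Figure D4:**
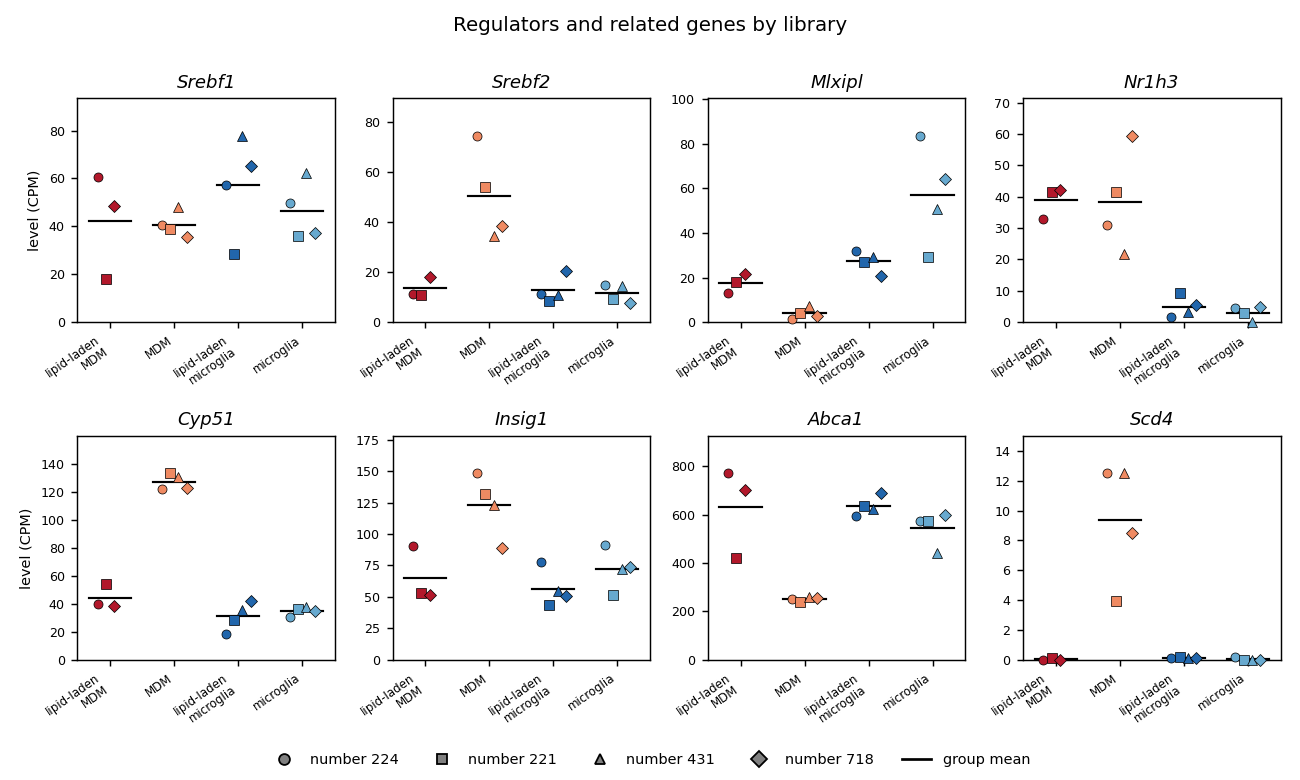
Levels in CPM, on linear axes from 0, of the regulators Srebf1, Srebf2, Mlxipl and Nr1h3 and of Cyp51, Insig1, Abca1 and Scd4 in every library, with bars at group means. MDM stand high for Srebf2, Cyp51 and Scd4 and low for Abca1 and Mlxipl, and both MDM groups stand high for Nr1h3.

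In MDM against microglia, both without lipid load, 3 regulators rose and 4 fell, beside 10.7% of all genes called higher and 12.5% lower. Srebf2 rose by 2.12 and Nr1h3 by 3.68 on the log2 scale (edgeR adjusted p = 0.000493 and 0.00198), as did Insig1 by 0.77 (0.0302; lost in 4 of 8 fits without a library, with adjusted p of 0.0565 to 0.0867). Mlxipl fell by 3.85, Thrsp by 3.17, Mid1ip1 by 1.96 and Insig2 by 0.97 (adjusted p = 1.64e-05, 0.000751, 0.000402 and 0.0110). Cyp51 rose by 1.87 (adjusted p = 1.6e-05). Of the LXR targets 1 rose (Pltp, phospholipid transfer protein, by 2.94) and 4 fell, among them Abca1 by 1.12 and Abcg1 by 0.95. In lipid-laden MDM against lipid-laden microglia, Nr1h3 (2.99) and Pltp (2.56) were higher in their lists (adjusted p = 0.0385 and 0.00178). Of all genes tested, 2.2% were called higher in that comparison. Nr1h3 was lost there in 6 of the 7 fits without a library (adjusted p = 0.0806 to 0.109, edgeR). In lipid-laden microglia against microglia, no gene of these lists was called by edgeR, and Mlxipl had the log2 fold change of largest size among regulators, -1.07 (adjusted p = 0.409).

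Of 9 genes that supply acetyl-CoA and NADPH, 3 rose and 0 fell in lipid-laden MDM against MDM, beside 5.21% of all genes called higher and 2.96% lower. Acss1, a mitochondrial acetyl-CoA synthetase, had 104 ± 21.4 CPM against 47.0 ± 6.67 (log2 fold change 1.14, edgeR adjusted p = 0.00317). Pgd, of the pentose phosphate pathway, had a log2 fold change of 0.56 (adjusted p = 0.0104; 0.0673 without lipid-laden MDM of number 718), and Idh1, a cytosolic NADPH source, had 1.03 (0.0491, lost in 6 of 7 fits without a library). In lipid-laden microglia none of the 9 was called, while 8 of 9 had positive log2 fold changes with a median of 0.37 (all genes -0.02), Pgd with 0.42 (adjusted p = 0.243). MDM compared with microglia had 1 of the 9 higher (Cs, citrate synthase, 0.48) and 2 lower (Acss1, -1.40, and Me1, malic enzyme, -3.81). The shares over all genes were 10.7% higher and 12.5% lower. Cs was lost in 2 and Me1 in 6 of the 8 fits without a library. Acss2, the cytosolic acetyl-CoA synthetase, was not called in any comparison and ran from 0.22 to 43.1 CPM over the libraries.

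Of 9 other fatty acid synthesis enzymes, cytosolic and mitochondrial, 7 were tested and 0 were called except in MDM against microglia, where Acacb, the acetyl-CoA carboxylase of the mitochondrial surface, was at least 36.8-fold lower (0 counts against 105). With 0 counts in MDM, Acacb passed the filter only through other groups, so its call is no support for a difference. Of 10 other elongases and elongation-cycle genes, 8 were tested. Hacd4, a dehydratase of the cycle, rose in lipid-laden MDM against MDM by 0.91 on the log2 scale (107 ± 16.8 CPM against 57.0 ± 9.36, edgeR adjusted p = 0.00632), the only call among them, and all 8 had positive log2 fold changes (median 0.34). The share of all genes called there was 8.17%. Hacd4 was also higher in lipid-laden MDM than in lipid-laden microglia (0.76, adjusted p = 0.0378, lost in 5 of 7 fits without a library), and Hacd3 was lower in MDM than in microglia (-0.57, adjusted p = 0.0195, lost in 4 of 8). Hsd17b12, the ketoacyl reductase of the cycle, had log2 fold changes of -0.22 to 0.41, none called. Some genes of these lists had few counts. Acacb had 25 counts in lipid-laden MDM and 0 in MDM, at least 10.7-fold higher, and was not called (edgeR adjusted p = 0.102). Elovl7 was not tested, with 31 counts in lipid-laden MDM (9, 22 and 0 for numbers 221, 224 and 718) and 2 in MDM. Their ratio was 20.0, with an interval of 5.08 to 172 that covers counting error only. All 26 Elovl7 counts in lipid-laden microglia came from number 718, and microglia had 0. The bound there, at least 7.98-fold higher, thus rests on that library alone. Elovl3, an elongase known from skin and brown fat and named after its values were seen, was not tested either. It had 22 counts in lipid-laden MDM and 0 in MDM, at least 9.44-fold higher, and 24 in lipid-laden microglia and 0 in microglia, at least 7.37-fold higher.

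Of 10 other desaturases and electron donors 9 were tested, and in lipid-laden MDM against MDM 1 rose (Cyb5r1, a cytochrome b5 reductase, by 1.31, adjusted p = 0.00361) and 1 fell (Scd4). The shares over all genes there were 5.21% higher and 2.96% lower. In MDM against microglia, 10.7% of all genes were called higher and 12.5% lower. Of this list 4 rose there, Scd3, Scd4, the ceramide desaturase Degs1 (0.87, adjusted p = 0.000589) and Cyb5r3, the main cytochrome b5 reductase (0.75, adjusted p = 0.00156), and Cyb5r1 fell (-0.78, adjusted p = 0.0225, lost in 5 of 8 fits without a library). Scd3 was lost in 4 of the 5 such fits in which it was tested. Scd3 and Scd4 passed the filter through MDM libraries alone, so their calls are no support for a difference. Fads3, the relative of Fads1 and Fads2, was not called in any comparison. Of 9 acyl-CoA synthetases 8 were tested. Acsl6, a form known from brain, had 76 counts in lipid-laden MDM and 0 in MDM, at least 32.6-fold higher, and 0 in MDM against 131 in microglia, at least 45.9-fold lower (both called). With 0 counts in MDM it passed the filter only through other groups, so its calls are no support for a difference. Acsl1, a form used by macrophages, rose in MDM against microglia by 0.83 (adjusted p = 0.0318, lost in 6 of 8 fits without a library).

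Several marker lists moved with these comparisons. Dendritic cell markers (6 genes, Clec9a at 0 in lipid-laden microglia) summed to 95.1 to 113 CPM in lipid-laden MDM, 538 to 1325 in MDM, 6.23 to 18.7 in lipid-laden microglia and 16.8 to 31.0 in microglia, high where Scd1, Scd4 and Elovl5 were high. Proliferation genes (6, none at 0) summed to 406 to 778 CPM in lipid-laden MDM, 101 to 224 in MDM, 746 to 1135 in lipid-laden microglia and 454 to 903 in microglia, low where Fads1 was low. Progenitor and glioma cell markers (8, none at 0) summed to 88.8 to 158 CPM in lipid-laden MDM, 11.8 to 21.5 in MDM, 165 to 515 in lipid-laden microglia and 129 to 488 in microglia. In lipid-laden MDM against MDM, 5.21% of all genes were called higher and 2.96% lower. Of the 7 microglial markers 6 rose in that comparison, of the 6 MDM markers 3 fell, of the 6 dendritic cell markers 4 fell, of the 6 proliferation genes 6 rose and of the 8 progenitor and glioma markers 5 rose. Neutrophil markers had 2 of 5 higher, with sums of 168 to 566 CPM in lipid-laden MDM and 105 to 136 in MDM (S100a9 at 0 in MDM). In MDM against microglia, 7 of 7 microglial markers, 6 of 6 proliferation genes and 8 of 8 progenitor and glioma markers fell, and 6 of 6 MDM, 6 of 6 dendritic cell and 3 of 6 T and NK cell markers rose. The shares over all genes there were 10.7% higher and 12.5% lower. The T and NK cell markers summed to 25.7 to 76.0 CPM in lipid-laden MDM, 18.8 to 133 in MDM, 0.102 to 3.51 in lipid-laden microglia (Il2rb and Gzmb at 0) and 0 to 6.77 in microglia (Cd3e and Gzmb at 0). In lipid-laden MDM against lipid-laden microglia, 2.2% of all genes were called higher and 0.579% lower. There, 5 of 6 MDM markers, 4 of 6 dendritic cell markers and 3 of 6 T and NK cell markers rose, and 3 of 6 hypoxia genes, 1 of 7 microglial and 1 of 8 progenitor and glioma markers fell. Their part in the results for Scd1, Scd2, Elovl5, Elovl1, Fads1 and the sterol genes was not tested.

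In lipid-laden microglia, where Scd2 had higher values, edgeR called no gene of the whole table (0%), so the marker lists are given by their values. Hypoxia genes summed to 649 to 1703 CPM in lipid-laden microglia and 497 to 875 in microglia, with 6 of 6 positive log2 fold changes (median 0.97). Proliferation genes had 6 of 6 positive (median 0.40) and neutrophil markers 4 of 5 (median 0.98). The neutrophil sum had the other direction, with a median of 191 CPM (132 to 305) in lipid-laden microglia and 276 (227 to 320) in microglia. Microglial markers had 0 of 7 positive (median -0.40), dendritic cell markers 0 of 6 (median -1.42) and MDM markers 2 of 6 (median -0.82). The 8 oligodendrocyte and myelin markers, a cell type known for high Scd2, summed to 157 to 216 CPM in lipid-laden microglia and 158 to 215 in microglia, with Mog at 0 in both. The progenitor and glioma list had positive log2 fold changes for 1 of 8 genes in this comparison (median -0.27). The part of these lists in the Scd2 values was not tested.

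Across the 15 libraries, the genes of highest Pearson correlation with each member were sought among 8749 genes, on log2 CPM. The points share groups, numbers and library depth, so these are descriptions. Elovl5 was most like Borcs5 (r = 0.96), Pole4 (0.93) and Isy1 (0.93), Fads1 most like Myo7a (0.94), Fam219a (0.93) and the mitotic kinesin Kif11 (0.92), and Scd1 most like Pdlim5 (0.92), Grk3 (0.91) and Cdc14a (0.91). Scd2 was most like Basp1 (0.87), Sdc3 (0.87) and the progenitor gene Nes (0.86). Elovl1 was most like Frmd4b (0.87), Lrrc14 (0.86) and Ralgps2 (0.86), and Acly most like Xpo1 (0.87), Ncapd3 (0.84) and Tstd2 (0.82). Fads2 was most like Ncald (0.84), Map1b (0.81) and Pfn2 (0.78), Acaca most like Tubb4b (0.80), Cant1 (0.76) and Dgkd (0.75), Fasn most like Sh3pxd2a (0.77), Edem1 (0.76) and Uhrf2 (0.73), and Elovl6 most like Ube2g1 (0.77) and Cnot8 (0.76). Among the 10 themselves, Elovl5 and Fads1 ran against each other (r = -0.78 over 15 libraries, -0.26 on deviations from group means). For Scd1 and Elovl5 r was 0.51 over the 15 libraries and -0.42 on deviations from group means.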

How the data were processed

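The authors deposited a table of raw read counts per gene for the 15 libraries, with gene identifiers, symbols and coordinates. Per the labels' protocols, RNA of flow-sorted cells was column-purified with DNase treatment and amplified from an oligo-dT primer with template switching. The submitters' processing notes name the mm10 build. Which aligner, counter and strand setting were used is not stated in these sources. 1 row named no gene and held 0 counts.

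EdgeR 4.0.16 (R 4.3.3) fitted all 15 libraries with 1 coefficient per group after TMM scaling and filterByExpr (minimum count 10, minimum total 15), which left 14843 genes; quasi-likelihood p-values were adjusted by Benjamini-Hochberg over all of them and called under 0.05. Standard errors were derived from the fold change and its F value. CPM per kb used exon lengths of GENCODE M21. DESeq2 1.42.0, limma-voom (limma 3.58.1), median-of-ratios scaling, no filter, a replicate block, fits of only the compared groups and omission of each library or number were alternatives. The fit was also run on data simulated with changes in lipid-laden MDM alone. Only lipid-laden MDM against MDM was scored there, and the outcome is not reported here. Same-numbered libraries deviated together across genes in lipid-laden against non-lipid-laden microglia (r = 0.12 to 0.26 over 4 pairs, different numbers -0.20 to 0.09). They also did in lipid-laden MDM against lipid-laden microglia (0.11 to 0.17 over 3 pairs, different numbers -0.11 to 0.03). In lipid-laden MDM against MDM (0.03 to 0.12, different numbers -0.08 to 0.06) the ranges overlapped. They also overlapped in MDM against microglia (0.02 to 0.15, different numbers -0.13 to 0.03). The 10 genes, the pathway lists and the tests were chosen with earlier results of these data known. Pathway genes named were the 3 of smallest p per list and comparison plus 9 chosen regulators and enzymes; others that complete a small count were named after their values were seen. Some results of the pathway lists and of the most similar genes are not reported here. Motifs were searched with Python 3.11.15.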

Additional observations from a re-analysis of the deposited data

Results flagged for a closer look

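Among 30 groups of 4 libraries tested for a library far from the others by Dixon's criterion, 4 held one, where chance gives about 1 in 20 groups. Acly stood high in microglia of number 221, at 455 CPM. Fasn stood high in lipid-laden microglia of number 224, at 56.5 CPM. Scd2 stood low in lipid-laden microglia of number 221, at 279 CPM, still above every microglial library without lipid load. Elovl1 stood high in microglia of number 718, at 305 CPM.

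EdgeR's interaction test of the lipid-load effect between MDM and microglia called 6 pathway genes, beside 2.53% of all genes (1.6% higher and 0.93% lower). They were read among the 3 genes of smallest p in each list, so their number cannot be set against that share. Mlxipl differed by 3.21 on the log2 scale (adjusted p = 0.00881) and Acsl6 with an adjusted p of 0.0140, both called whichever of the 15 libraries was left out. Acsl6 had 0 counts in MDM and passed the filter only through other groups, so its call is no support for a difference. Scd4 (adjusted p = 0.0141) was lost without 1 library. It passed the filter through MDM libraries alone, so its call is no support for a difference. Abca1 (difference 1.10, adjusted p = 0.0190) was lost without 2, Cyp51 (-1.36, adjusted p = 0.0291) without 6 and Srebf2 (-2.03, adjusted p = 0.0493) without 13. In the same test 6 of 7 microglial markers were called as higher, and their part in these differences was not tested.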

How the results depend on the processing

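No called value changed sign under any alternative run. In lipid-laden against non-lipid-laden microglia, edgeR called 0 genes, against 17 without the filter, 164 with DESeq2 and 119 with the replicate block, the last 2 with 1 of the 10 genes each (Scd2). DESeq2 called 1982 genes in lipid-laden MDM against MDM, 798 in lipid-laden MDM against lipid-laden microglia and 960 for the difference of effects, with 2 of the 10 genes there and 1 by limma-voom. The replicate block gave 657 for the difference, and the fit of only the compared groups 176 for lipid-laden MDM against lipid-laden microglia. In that kind of fit, lipid-laden MDM against MDM split into 569 higher and 607 lower, against 773 and 440 in the fit of all groups. The cause of these shifts was not tested.

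With a library or a number left out, lipid-laden against non-lipid-laden microglia gave 0 to 64 genes (64 without lipid-laden microglia of number 224) and 0 of the 10. Lipid-laden MDM against MDM gave 243 to 1052 genes and 0 to 3 of the 10, lowest without number 718 and number 224. It kept 1 of the 10 without MDM of number 224 or lipid-laden MDM of number 221, 224 or 718, and 657 genes without lipid-laden MDM of number 718 and 800 without MDM of number 224. MDM against microglia gave 1679 to 3208 genes and 1 to 4 of the 10 (2 without microglia of number 431). Lipid-laden MDM against lipid-laden microglia gave 104 to 378 genes and 0 to 1 of the 10 (168 genes without lipid-laden MDM of number 224, 243 without lipid-laden microglia of number 431, 261 and 0 of the 10 without lipid-laden MDM of number 718). The difference of effects gave 2 to 452 genes and 0 to 1 of the 10 (186 without lipid-laden MDM of number 718, 245 without that of number 224, 231 without microglia of number 224). Among the 10 genes the block changed calls only by adding Scd2 in lipid-laden against non-lipid-laden microglia and Scd2 and Fads2 in MDM against microglia. Groups of 3 or 4 libraries limit what could be called, and Fads2, Elovl6, Acaca and Scd1 rest on the fewest counts.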
